A study of Mus musculus with 11 samples.

Results

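The genes described here carry out glucose sensing and insulin secretion in the pancreatic β cell: Slc2a2, Kcnj11, Abcc8, Slc30a8, Pcsk1, Pcsk2, G6pc2, Cacna1d and Chga. They were chosen by symbol for their known roles, with earlier results of these data known. They are 9 of the 25802 genes in the deposited tables. Every CpG island and 5000-bp tile overlapping a gene or its promoter was added. This gave 6 of 24391 promoters, 9 gene bodies, 3 of 14841 CpG islands and 123 of 259716 tiles. DNA methylation was measured by reduced representation bisulfite sequencing (RRBS) in whole pancreas of wild-type C57BL/6N mice at postnatal day 0. In this assay DNA is cut with MspI and TaqI, so that reads begin at CpG-containing sites, and bisulfite converts unmethylated but not methylated cytosines. The amphetamine group comprised 5 pups (3 females and 2 males) of dams injected with 10 mg/kg amphetamine on embryonic days 14.5, 15.5 and 16.5, and the control group 6 pups (3 females and 3 males) labelled Saline. According to the study's methods, control dams were injected with saline on the same days. The labels do not say which pups were littermates. The same 11 mice, regrouped as 6 females and 5 males with both treatments in each sex, made up the sex comparison.

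In β cells glucose enters through the transporter encoded by Slc2a2 (GLUT2 in mice), and its metabolism raises ATP. ATP closes a potassium channel built from the pore Kcnj11 (Kir6.2) and the sulfonylurea receptor Abcc8 (SUR1), the membrane depolarizes, and calcium entering through L-type channels, of which Cacna1d (CaV1.3) encodes a pore subunit, triggers release of insulin granules. Pcsk1 and Pcsk2 encode the convertases that cut proinsulin, Slc30a8 (ZnT8) loads granules with the zinc that packs insulin, Chga (chromogranin A) is a granule matrix protein, and G6pc2 encodes an islet glucose-6-phosphatase catalytic subunit that opposes glucokinase. CpG-rich promoters are generally unmethylated whether or not a gene is active, whereas CpG-poor promoters are often methylated in cells that do not use the gene. Methylation of the whole pancreas averages all its cells, so a different share of endocrine cells and a different methylation level within a cell type cannot be told apart.

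The 9 genes begin in very different sequence. The 250 bases before the gene start are shown for genes that span this range, read from the mouse genome (RefSeq, GRCm38.p6, the assembly of mm10) on the coding strand, with CpG dinucleotides, the positions that can carry methylation, in capitals. They are Pcsk2 (chr2:143545906-143546155, plus strand, 34 CpGs), Chga (chr12:102554719-102554968, plus, 17 CpGs), Pcsk1 (chr13:75089576-75089825, plus, 8 CpGs), G6pc2 (chr2:69210823-69211072, plus, 3 CpGs) and Slc30a8 (chr15:52295303-52295552, plus, 0 CpGs). For Cacna1d the stretch before an internal start shared by shorter transcripts is shown (chr14:30353487-30353736, minus, 50 CpGs), because the stretch before its annotated gene start held 2.
Pcsk2: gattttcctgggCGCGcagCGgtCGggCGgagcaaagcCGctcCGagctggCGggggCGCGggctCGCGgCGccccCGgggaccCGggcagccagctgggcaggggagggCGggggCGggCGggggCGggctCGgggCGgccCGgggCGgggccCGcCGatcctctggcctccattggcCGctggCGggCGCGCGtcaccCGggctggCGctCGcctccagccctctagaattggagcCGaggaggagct
Chga: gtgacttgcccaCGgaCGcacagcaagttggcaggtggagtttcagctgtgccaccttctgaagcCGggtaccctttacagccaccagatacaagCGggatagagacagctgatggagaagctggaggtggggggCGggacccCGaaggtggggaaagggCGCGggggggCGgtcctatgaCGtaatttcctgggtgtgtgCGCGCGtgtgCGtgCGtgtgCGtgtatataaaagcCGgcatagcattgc
Pcsk1: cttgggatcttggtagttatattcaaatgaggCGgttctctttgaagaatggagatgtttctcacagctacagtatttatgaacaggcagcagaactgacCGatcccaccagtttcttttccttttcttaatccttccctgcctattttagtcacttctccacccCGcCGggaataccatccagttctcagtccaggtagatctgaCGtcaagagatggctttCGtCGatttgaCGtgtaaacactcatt
G6pc2: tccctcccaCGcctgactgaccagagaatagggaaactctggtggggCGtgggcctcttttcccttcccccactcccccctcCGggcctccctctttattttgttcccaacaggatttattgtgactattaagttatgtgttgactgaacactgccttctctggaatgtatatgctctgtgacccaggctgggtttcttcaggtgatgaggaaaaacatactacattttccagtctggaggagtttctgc
Slc30a8: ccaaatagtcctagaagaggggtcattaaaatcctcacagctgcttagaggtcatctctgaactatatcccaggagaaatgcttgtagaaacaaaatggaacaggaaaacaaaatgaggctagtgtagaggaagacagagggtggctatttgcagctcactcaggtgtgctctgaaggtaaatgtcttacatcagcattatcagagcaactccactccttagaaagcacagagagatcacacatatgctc
Cacna1d internal start: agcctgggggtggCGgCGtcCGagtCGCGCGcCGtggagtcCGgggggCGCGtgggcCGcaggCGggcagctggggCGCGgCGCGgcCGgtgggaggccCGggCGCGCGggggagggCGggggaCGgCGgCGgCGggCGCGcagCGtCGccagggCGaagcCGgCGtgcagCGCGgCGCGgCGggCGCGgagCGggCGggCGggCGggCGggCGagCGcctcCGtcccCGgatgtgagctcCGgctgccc

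Over 25426 genes the median of such a stretch was 9 CpGs, and 95.2% held at least 1. The core of the cAMP response element, TGACGT on either strand, which contains a CpG and is bound by CREB-family factors, was found before Chga (1 match) and Pcsk1 (2 matches on the coding strand and 1 on the other, where a TGACGTCA palindrome counts on both), and before 6.97% of all genes. Abcc8 held 19 CpGs, Kcnj11 4 and Slc2a2 2 in the same window, with no such core in these letters.

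The members also differed in how many CpGs near the start lay within reach of RRBS reads. A CpG was counted as reachable when it lay within 50 bp, the read length, of an MspI (CCGG) or TaqI (TCGA) site. The promoter window of the tables runs from 1500 bp before to 500 bp after the gene start, and it held 66 reachable CpGs for Pcsk2, 52 for Kcnj11, 43 for Abcc8, 38 for Chga, 21 for Pcsk1 and 6 for G6pc2. The 3 members without a listed promoter had 5 (Cacna1d), 2 (Slc2a2) and 2 (Slc30a8). Across the annotation 80.1% of windows were listed, with a median of 38 reachable CpGs in those listed and 3 in those not listed. For Slc2a2, Slc30a8 and the annotated start of Cacna1d there is no promoter value, and no tile holds these starts either. Why these windows were not listed was not tested.

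No region of the 9 genes passed the test for amphetamine exposure. Each region was compared by limma's moderated test, two-sided, on the methylation fractions, with Benjamini-Hochberg adjustment over all regions of its class and a threshold of 0.05. Differences are amphetamine minus control or female minus male, in percentage points. Of the 6 promoters, 9 gene bodies, 3 islands and 123 tiles, 0 were called, where the test called 0.0164% of all promoters, 0.0116% of gene bodies, 0.0135% of islands and 0.0185% of tiles. The smallest adjusted p was 0.958 at promoters, 0.984 at gene bodies, 0.923 at islands and 0.965 at tiles. At an unadjusted p under 0.05, limma counted 0 promoters, 0 gene bodies and 0 islands of the members, against 4.11%, 4.38% and 4.1% of all regions of those classes, and 6 of 123 tiles (4.88%), against 4.4% of all tiles. In no member region did the treatment groups' ranges fail to overlap, which happened at 0.538% of all promoters, 0.369% of gene bodies, 0.486% of islands and 0.525% of tiles. The tables give each group's mean, SD, lowest and highest mouse rather than values per mouse, and these are given below.

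**Figure D1:**
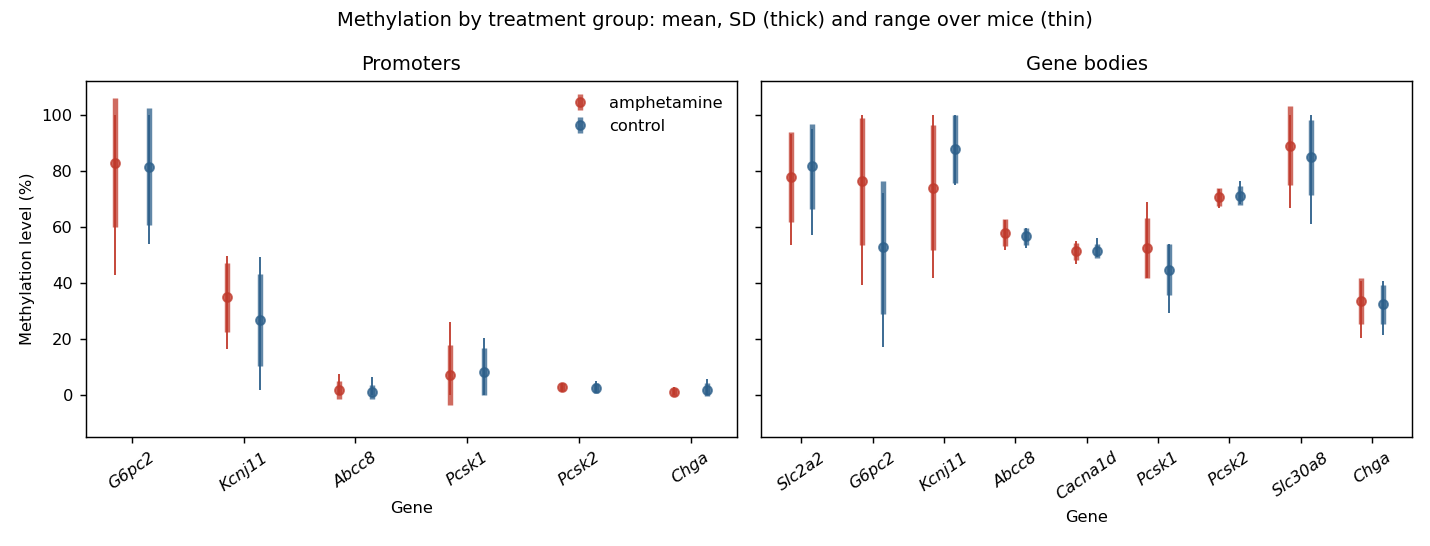
Methylation level (percent) of the listed promoters and of the gene bodies in 5 amphetamine (red) and 6 control mice (blue; 5 for the Kcnj11 gene body), ordered by role; points are means, thick bars the SD (which can pass 0 or 100) and thin lines the lowest to highest mouse. Promoters of Abcc8, Pcsk2 and Chga lie near 0, that of G6pc2 above 80%, and the ranges of the groups overlap at every gene.

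Among the genes of glucose entry and its counterbalance, G6pc2 had the methylated promoter of the set (chr2:69209573-69211572). Its mean was 82.9% ± 22.9 (SD, n = 5) after amphetamine, with mice from 42.8% to 100%, and 81.5% ± 20.9 (n = 6) in controls, with mice from 54.0% to 100%. It was higher than 81.2% of all promoters in controls, whose median was 8.12%, and the groups covered almost the same range. The G6pc2 gene body (chr2:69211073-69227841) showed the widest treatment difference of the 9 gene bodies, at 76.2% ± 22.7 against 52.7% ± 23.8. Mice ranged from 39.1% to 100% after amphetamine and from 17.2% to 72.0% in controls. The difference of 23.4 percentage points had a 95% interval from -6.08 to 52.9 and did not pass the test (limma, adjusted p = 0.984). The tile holding the start (chr2:69210001-69215000) was at 82.4% ± 16.2 and 80.5% ± 20.4. The next tile (chr2:69215001-69220000), which lies within the gene body and shares its reads, was at 71.6% ± 23.7 and 45.5% ± 26.8. The difference in that tile had a 95% interval from -6.54 to 58.7 and did not pass the test either (limma, adjusted p = 0.965). The tile before the promoter (chr2:69205001-69210000), which holds the start of the neighbouring gene Spc25, was low at 19.0% and 13.8%.

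Slc2a2 could be read only inside the gene (chr3:28697903-28728363), on 3 tiles between 9.6 and 29.6 kb from the start. Its gene body was at 77.8% ± 16.0 (n = 5) after amphetamine, from 53.5% to 92.9%, and at 81.5% ± 15.0 (n = 6) in controls, from 57.2% to 95%, a difference of -3.71 points (95% interval -23.3 to 15.9). The tile with most reads (chr3:28720001-28725000), which holds a start of 1 annotated Slc2a2 transcript, stood at 68.8% ± 15.8 and 77.1% ± 8.0. The tile nearest the start (chr3:28705001-28710000) was at 100% in the 3 amphetamine mice with reads and at 66.7% ± 57.7 in 3 controls, from 0% to 100%, at 12.4 and 6.67 reads. In the last tile 1 amphetamine mouse reached down to 28.2%, while the 4 controls with reads lay between 97.5% and 100%. Its difference of -17.1 points (limma, adjusted p = 0.965) became -3.54 without that mouse. The direction thus differed among the 3 tiles.

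The 2 subunits of the ATP-sensitive potassium channel are neighbours on chromosome 7. The Abcc8 promoter (chr7:46179534-46181533) was almost unmethylated, at 1.70% ± 3.24 (n = 5) after amphetamine and 1.22% ± 2.51 (n = 6) in controls. Both groups held mice at 0%, and the highest were 7.44% and 6.26%. The CpG island over the Abcc8 start (chr7:46179459-46180227, 75 CpGs) gave 3.31% ± 2.96 and 2.35% ± 2.64. Across the gene body (chr7:46104523-46180033) the level was 57.9% ± 4.81 and 56.6% ± 2.96, a difference of 1.23 points with a 95% interval from -3.97 to 6.44, and 10 of 15 tiles were at 50% or more in controls. Tile levels ran from 0.521% in controls at the start to a fully methylated tile in the gene's interior (chr7:46145001-46150000, 100% in all 3 mice of each group with reads). That interior tile rested on a mean coverage of only 8.4 reads after amphetamine and 5.83 in controls.

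Kcnj11 needs its coordinates in mind. Its record in the tables (chr7:46098725-46099897) spans 1173 bp of 1 exon, so the listed promoter (chr7:46099398-46101397) is anchored at the end of that record, position 46099897, and contains 4 annotated transcript starts of the gene, all upstream of that position. This promoter was at 34.9% ± 12.3 (n = 5) after amphetamine, with mice from 16.5% to 49.4%, and at 26.8% ± 16.3 (n = 6) in controls, with mice from 1.92% to 49.3%. The difference of 8.11 points (95% interval -10.9 to 27.1) was smaller than either SD. Within the same window the Kcnj11 CpG island (chr7:46100676-46100883, 21 CpGs), which holds a transcript start at position 46100764, was at 0% in the 3 amphetamine and 4 control mice with reads, at a mean coverage of 7.2 and 9.67 reads over all mice of a group, those without reads included, as all coverages here are given. With 0 methylated reads of 36 and 58, counting error alone allows levels up to 8.33% and 5.17% (3 reads of the total; reads are counted at each CpG and are not independent molecules). The gene body, in contrast, was at 74.0% ± 22.2 (n = 5) and 87.6% ± 12.1 (n = 5), with mice from 41.7% and from 75.0% up to 100%. That difference of -13.7 points (95% interval -37.6 to 10.2, limma adjusted p = 0.984) rested on a mean coverage of 42.6 and 33.5 reads, and without the lowest amphetamine mouse it became -5.61. The tile between the pair of genes (chr7:46100001-46105000), counted for both, was low at 10.3% ± 5.33 and 5.34% ± 4.37.

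Cacna1d was the longest member (chr14:30039949-30491156) and carried 61 of the tiles. Its gene body was the same in both groups to within 1 point, 51.3% ± 3.03 (n = 5) against 51.5% ± 2.53 (n = 6), with a 95% interval of the difference from -4.03 to 3.75. Of its tiles, 55 were at 50% or more in controls and 4 were under 10%. One of these low tiles (chr14:30350001-30355000) holds 5 transcript starts of Cacna1d, between positions 30352991 and 30353486, just downstream of the CpG-dense stretch printed above. It was at 2.40% ± 2.95 after amphetamine and 1.39% ± 1.12 in controls, at a mean coverage of 1249 and 790 reads. The second coincides with the CpG island (chr14:30479315-30479994), which lies inside Cacna1d but holds 6 transcript starts of the neighbouring gene Dcp1a, an mRNA decapping factor, and no start of Cacna1d. That island was at 0.444% ± 0.619 and 1.82% ± 2.15. The other 2 low tiles, at 28.7 and 33.7 kb from the annotated start, were at 0% in the 3 amphetamine and 4 control mice with reads, where 62 to 86 reads a group allow up to 4.84% to 3.49%.

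Among the convertases, Pcsk2 had the larger coverage over its gene body, at a mean of 7223 and 5847 reads. Coverage was read as a sum over a region's CpGs, and this gene body is 270130 bp long, against 42673 bp for Pcsk1. The Pcsk2 promoter (chr2:143544656-143546655) was at 2.92% ± 1.40 (n = 5), from 1.13% to 4.38%, after amphetamine and at 2.58% ± 1.71 (n = 6), from 0.588% to 5.05%, in controls. The 95% interval of the difference ran from -1.88 to 2.56 points. The gene body (chr2:143546156-143816285) was at 70.6% ± 3.14 and 71.1% ± 3.31, an interval from -4.94 to 3.92 points. The start tile at 2.89% and 2.73% was the only 1 of 29 under 10% in controls, and 26 were at 50% or more.

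The Pcsk1 promoter (chr13:75088326-75090325) varied most among the low promoters. It ran from 0% to 26.0% after amphetamine (mean 7.13% ± 10.8) and from 0% to 20.3% in controls (8.37% ± 8.41). The tile holding its start (chr13:75085001-75090000) spread from 0% to 63.0% and from 0% to 92.3%, while the tile just downstream (chr13:75090001-75095000) stayed between 0% and 16.7%. Its gene body (chr13:75089826-75132498) was at 52.5% ± 10.7 and 44.7% ± 9.16, a difference of 7.72 points (95% interval -4.85 to 20.3, limma adjusted p = 0.984).

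Of the granule genes, Chga went from unmethylated to methylated within its own length. The promoter (chr12:102553469-102555468) was at 1.18% ± 1.34 (n = 5), from 0% to 2.84%, after amphetamine and at 1.90% ± 2.24 (n = 6), from 0% to 5.88%, in controls. Along the gene (chr12:102554969-102565027) and its flanks the tile means in controls were 3.15%, 5.93%, 77.0% and 61.3%, and after amphetamine 2.88%, 7.42%, 83.0% and 63.6%. The first of these tiles lies mostly before the gene start and the last reaches only the last bases of the gene, while those in the middle lie inside it. The gene body average of 33.6% ± 8.10 and 32.4% ± 6.83 thus mixes both ends. Slc30a8 (chr15:52295553-52335798) was methylated throughout what could be read, with a gene body of 89.0% ± 14.2 (n = 5) and 84.7% ± 13.3 (n = 6) and a tile just before the start (chr15:52290001-52295000) of 94.2% ± 4.94 and 94.4% ± 8.05. Its gene body had the fewest reads of the set, 6.8 after amphetamine and 22.8 in controls.

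**Figure D2:**
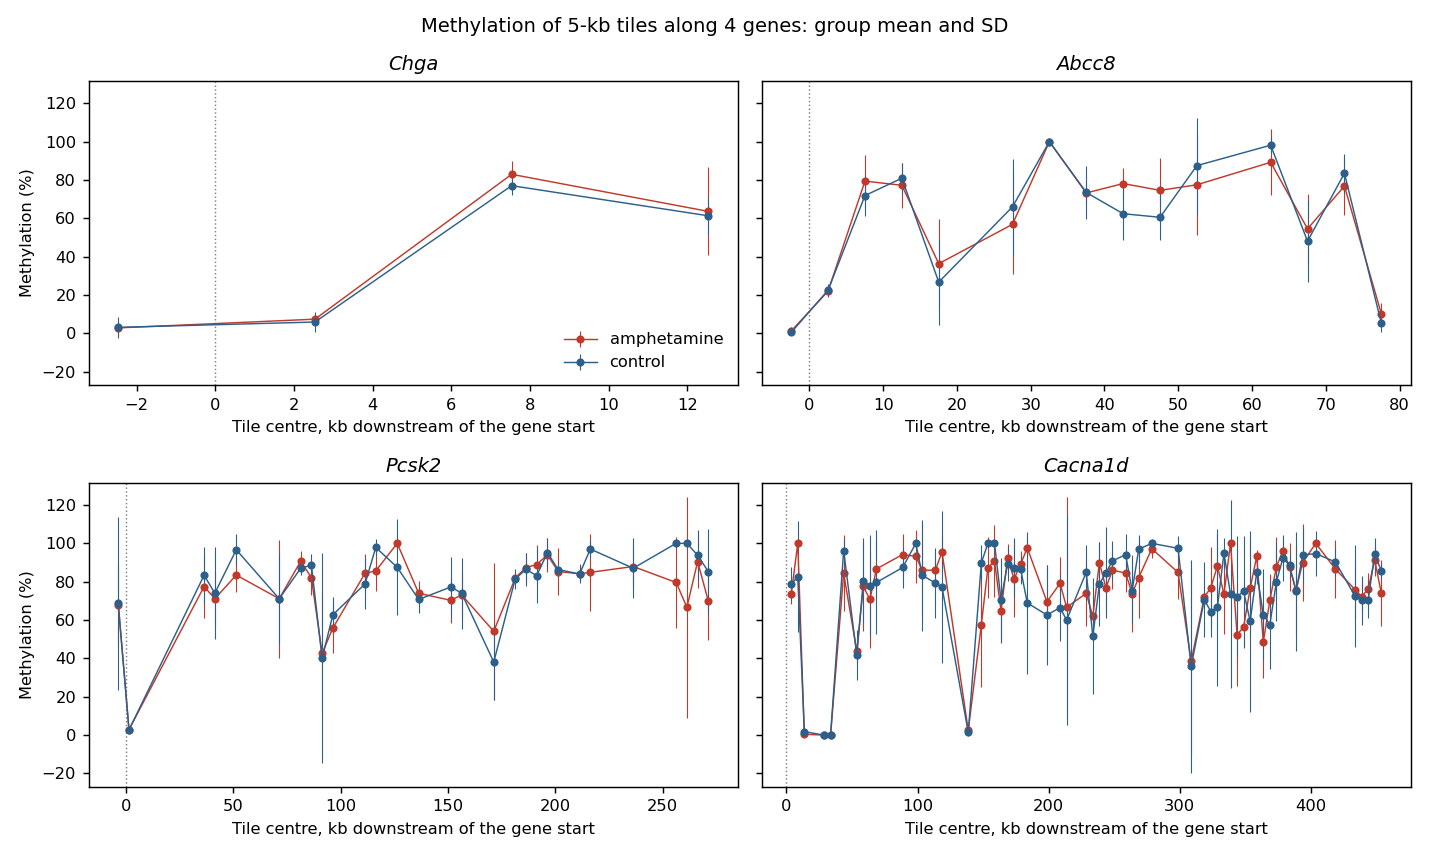
Methylation (percent; group mean and SD) of 5000-bp tiles against the distance of the tile centre from the gene start (kb, dotted line at 0) along Chga, Abcc8, Pcsk2 and Cacna1d in amphetamine (red) and control (blue) mice with reads. Levels are near 0 at the starts of Chga, Abcc8 and Pcsk2 and at 4 places inside Cacna1d, 1 of them at its internal start 138.7 kb downstream, and mostly above 50% elsewhere in the 3 longer genes.

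The 6 tiles with an unadjusted p under 0.05 for amphetamine lay in 3 genes, 4 lower and 2 higher. Their unadjusted limma p-values ran from 0.0233 to 0.0405, and all had an adjusted p of 0.965. In Pcsk2, an intronic tile 51.3 kb from the start (chr2:143595001-143600000) was at 83.4% ± 8.95 after amphetamine, from 73.7% to 94.1%, and at 96.7% ± 8.16 in controls, from 80.0% to 100%, with a mean coverage of 17.8 and 11.7 reads. A second Pcsk2 intronic tile at 116.3 kb (chr2:143660001-143665000) was at 85.6% ± 10.4 and 97.9% ± 4.58. The groups overlapped in both tiles, the controls lying mostly near full methylation.

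In Abcc8 1 tile (chr7:46135001-46140000, over exons and introns) was higher after amphetamine, at 78.1% ± 8.22, from 71.5% to 91.8%, against 62.4% ± 13.6, from 43.1% to 80.2%. It holds 2 annotated Abcc8 transcript starts. With 237 and 192 reads it was the best covered of the 6. In Cacna1d a tile over an exon (chr14:30130001-30135000) was higher at 93.2% ± 3.51 against 85.1% ± 6.22. The 2 other Cacna1d tiles were intronic and lower. One (chr14:30155001-30160000) was at 73.5% ± 20.9 (n = 4) against 94.9% ± 7.86, and without the lowest amphetamine mouse the difference of -21.4 points became -13.6. The other (chr14:30340001-30345000), 10 kb from the internal-start tile, was at 57.7% ± 32.7, from 5.68% to 93.1%, against 89.9% ± 9.04, from 73.1% to 100%. In it the amphetamine mice were spread over most of the scale and the controls were not, and without the lowest amphetamine mouse the difference of -32.2 points became -19.2.

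Over all 123 tiles, 63 were higher and 57 lower after amphetamine and 3 were equal, with a median difference of 0.0860 points, against 0 over all tiles of the genome. Differences were smallest in the most deeply read tiles. Among the 35 member tiles with under 20 reads in the less covered group the median absolute difference was 6.82 points, among the 51 with 20 to under 100 reads 6.86, and among the 37 with at least 100 reads 3.30. The corresponding medians over all tiles were 8.17, 5.02 and 2.69 points. Coverage of the members was 1.24 times as high in the amphetamine group as in controls, as over all tiles (1.24), and its part in the differences was not tested.

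**Figure D3:**
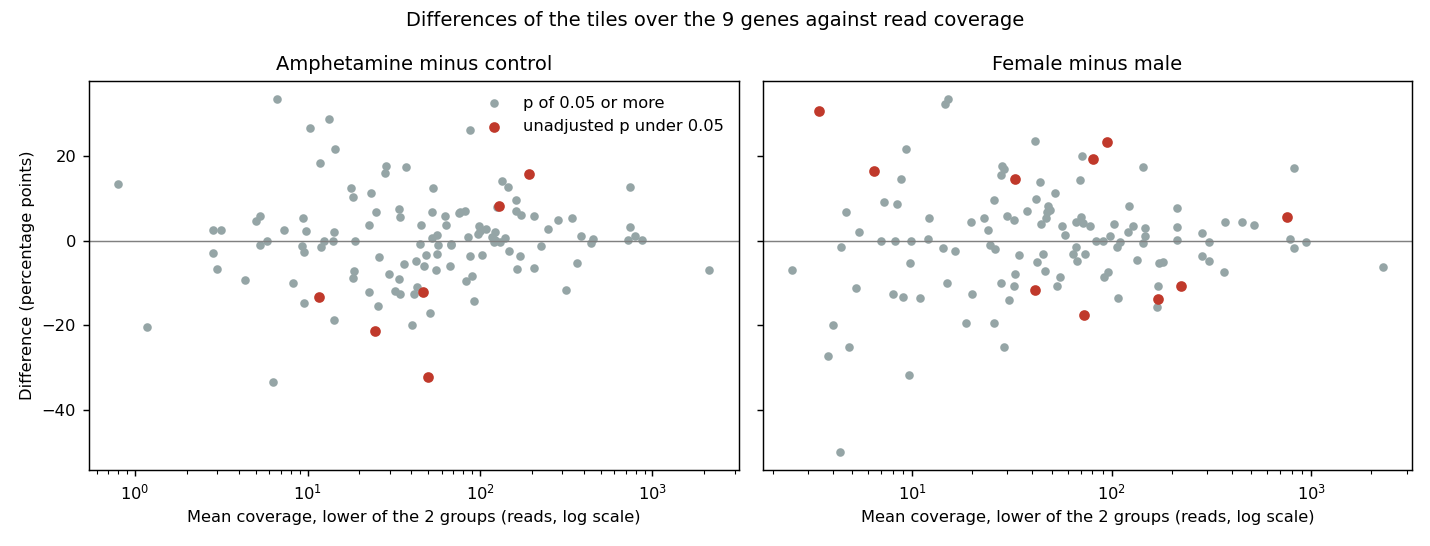
Difference in methylation (percentage points) of each member tile against the mean coverage of the less covered group (reads, log scale), for treatment (123 tiles) and sex (122 tiles); red points have an unadjusted p under 0.05 (6 and 10 tiles). Differences beyond 20 points in the treatment panel all come from tiles with fewer than 100 reads.

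Between females and males, again, no region of the 9 genes was called at an adjusted p under 0.05 (0 of 6 promoters, 0 of 9 gene bodies, 0 of 3 islands and 0 of 122 tiles), where limma called 0.564% of all promoters, 0.373% of gene bodies, 1.09% of islands and 0.076% of tiles, those on the X chromosome included. At an unadjusted p under 0.05 it counted 0 promoters and 0 islands, against 6.07% and 6.65% of all, 1 of 9 gene bodies, against 6.5%, and 10 of 122 tiles (8.20%), against 5.59%. The ranges of the sexes did not overlap in 0 member promoters, gene bodies and islands and in 1 tile (0.820%), where this happened at 1.57% of all promoters, 1.05% of gene bodies, 1.88% of islands and 0.85% of tiles. All 9 genes are autosomal. On autosomes alone, with the adjustment made over autosomal regions, limma called 0.013% of promoters, 0.00408% of gene bodies, 0.00694% of islands and 0.03% of tiles, and the unadjusted shares were 4.67%, 5.53%, 4.84% and 5.26%. Sexes whose ranges did not overlap made up 0.528%, 0.478%, 0.486% and 0.617% of these autosomal regions.

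The 1 gene body was that of Pcsk2. It was at 72.9% ± 2.38 in 6 females, from 69.4% to 76.3%, and at 68.5% ± 1.81 in 5 males, from 66.8% to 71.6%. The difference of 4.42 points had a 95% interval from 1.22 to 7.63 and did not pass the test (limma, unadjusted p of 0.0117, adjusted p = 0.538). The sexes overlapped, and leaving out the highest or lowest mouse of either sex kept the difference between 3.73 and 5.20 points. Of its 29 tiles 19 were higher in females and 10 lower, where 54.1% of all tiles were higher in females. The 5 Pcsk2 tiles with an unadjusted p under 0.05 were all intronic, and 4 were higher in females. The tile 41.3 kb from the start (chr2:143585001-143590000) separated the sexes, with 5 females from 70.0% to 100% and 5 males from 50% to 66.7% (limma, adjusted p = 0.329), at a mean coverage of 4.67 and 3.4 reads. The best covered (chr2:143755001-143760000, 824 and 753 reads) was at 86.6% ± 3.82 and 81.0% ± 2.96. The remaining higher tiles differed by 14.6 and 16.5 points, and the lower one (chr2:143700001-143705000) was at 65.6% ± 11.7 in females and 83.2% ± 13.9 in males.

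The Slc2a2 gene body was at 72.5% ± 15.3 in females and 88.7% ± 8.61 in males, a difference of -16.2 points with an interval from -32.5 to 0.0214 (limma, adjusted p = 0.770). All 3 of its tiles, which share reads with the gene body, were lower in females. The tile nearest the start rested on 2 females and 4 males. In the last tile the difference turned to 3.83 points without the lowest female. The Abcc8 promoter was at 0.349% ± 0.541 in females, none above 1.05%, and at 2.74% ± 3.78 in males, up to 7.44% (limma, adjusted p = 0.917). The highest mouse of the amphetamine group and the highest control at this promoter were therefore both male. At its island the means were 1.49% and 4.34% (limma, adjusted p = 0.807). The Kcnj11 promoter was likewise lower in females, 25.0% ± 14.6 against 37.1% ± 12.7 (limma, adjusted p = 0.917), and the highest mouse of each treatment group was again male. In Cacna1d 3 tiles had an unadjusted p under 0.05, with females lower by 10.8 and 11.8 points in 2 of them and higher by 23.4 points in the other. Single tiles of Abcc8 (13.9 points lower in females) and Chga (19.3 points higher, a tile that reaches only the last bases of the gene) made up the rest. None of these 5 tiles had an adjusted p under 0.867.

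**Figure D4:**
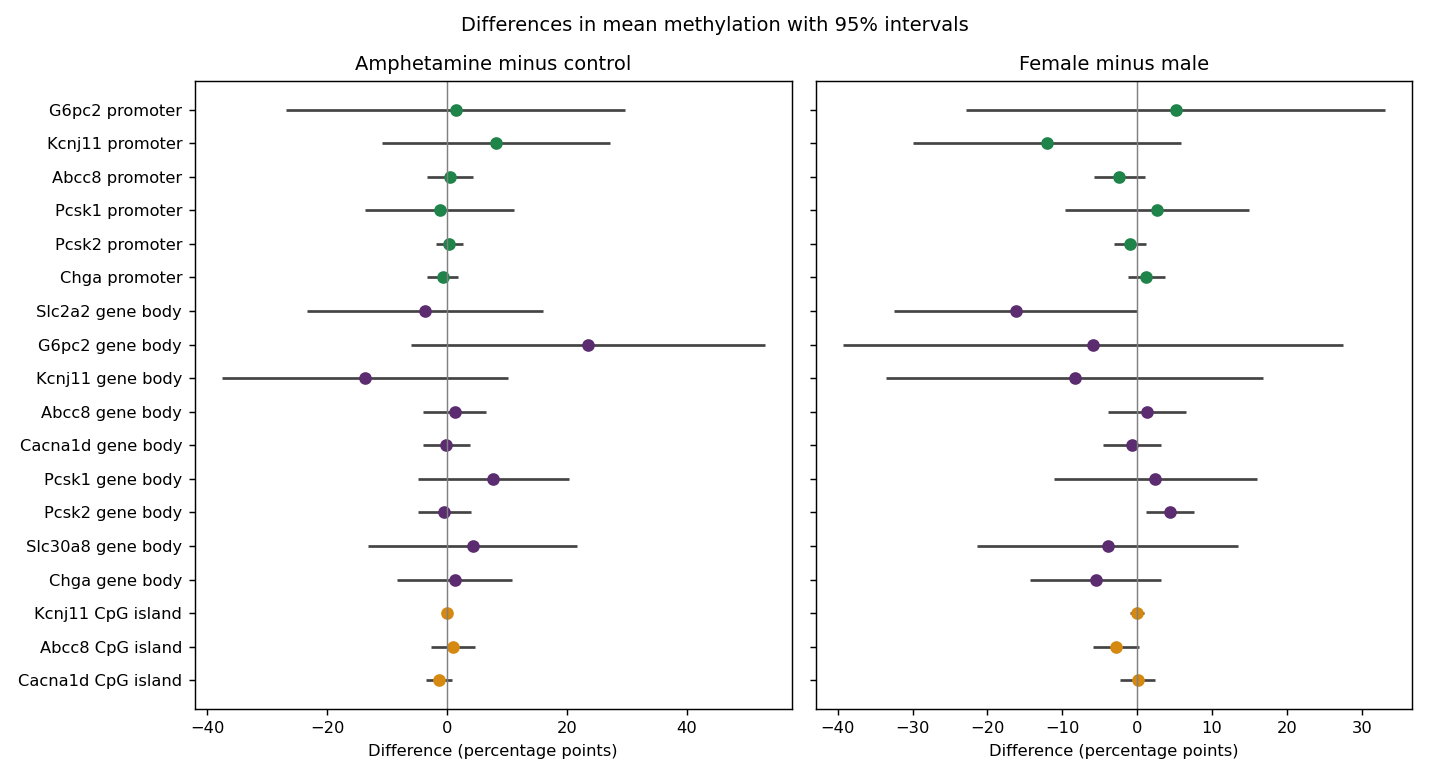
Difference in mean methylation (percentage points, points) with 95% intervals (lines) for every promoter (green), gene body (purple) and CpG island (orange) of the 9 genes, amphetamine minus control on the left and female minus male on the right. Every treatment interval includes 0, and in the sex comparison only that of the Pcsk2 gene body, 1.22 to 7.63 points, does not; the widest interval in either panel is that of the G6pc2 gene body.

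The wider pathway was read from 80 further genes in 6 roles, chosen from textbook function with earlier results of these data known, of which 71 had a promoter and 79 a gene body value in the treatment comparison. By limma 0 had an adjusted p under 0.05 at either. At an unadjusted p under 0.05 were 3 promoters (4.23%, all higher after amphetamine) and 6 gene bodies (7.59%, 2 higher and 4 lower), beside the shares of all regions given above. At promoters 34 genes were higher and 35 lower, and at gene bodies 38 and 41, where 48.6% of all promoters and 47.9% of all gene bodies were higher.

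The smallest of these p-values was at the promoter of Gpd2 (chr2:57236135-57238134), the mitochondrial glycerol-3-phosphate dehydrogenase of the shuttle that carries reducing equivalents into the mitochondrion. It was at 0% in all 6 controls and at 3.42% ± 1.79 in the 5 amphetamine mice, from 1.3% to 5.36%, at a mean coverage of 136.5 reads in controls, which allows up to 0.366%, and 172.6 after amphetamine. The groups did not overlap there, and the limma p of 0.00154 became 0.710 after adjustment. The promoter of Cplx1 (chr5:108549525-108551524), a complexin that clamps the fusion machinery, was at 7.81% ± 2.27 against 3.47% ± 2.31 (limma, adjusted p = 0.958). That of Vamp8, a vesicle SNARE, was at 19.8% ± 5.51 against 12.6% ± 4.23 (limma, adjusted p = 0.958).

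By role, the gene bodies higher and lower after amphetamine were 1 and 10 for glucose entry and glycolysis, 5 and 5 for mitochondrial coupling, 8 and 7 for membrane channels, 10 and 8 for exocytosis, 4 and 7 for granule cargo, and 10 and 4 for receptors that modulate secretion. In females against males, over the same mice, they were 10 and 1, 3 and 7, 10 and 5, 9 and 9, 7 and 4, and 5 and 9 in that order, where 53.2% of all gene bodies were higher in females. No test was made of these counts. For glucose entry and glycolysis the 3 genes with an unadjusted p under 0.05 were Pklr, a pyruvate kinase (75.4% ± 4.29 against 83.6% ± 6.25), X-linked Pgk1, phosphoglycerate kinase (39.2% ± 8.61 against 51.3% ± 8.66), and Hk1, hexokinase 1 (64.2% ± 1.53 against 66.9% ± 1.40), with limma p of 0.0274, 0.0353 and 0.0395. The others were the granule calcium sensor genes Syt9, lower at 54.1% ± 5.39 against 61.6% ± 4.83, and Syt7, higher at 26.5% ± 2.59 against 23.1% ± 1.92, and Ucp2, a mitochondrial carrier, higher at 71.7% ± 5.20 against 62.4% ± 7.15. In each of these 6 gene bodies the groups overlapped and the adjusted p was 0.984.

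Markers of other pancreatic cells were compared as groups. These values, from few marker genes in whole pancreas, do not show which cells were present and are no check of the tissue label. The median promoter level of acinar genes (7 of 13 measured) was 53.3% after amphetamine and 46.7% in controls, of duct genes (7 of 7) 27.6% and 16.3%, of leukocyte genes (4 of 8) 68.8% and 39.6%, and of mesenchyme genes (5 of 7) 17.9% and 22.1%. Gene by gene the median difference was -0.37 points for acinar genes (3 higher, 4 lower), 0.11 for duct genes (4 higher, 3 lower), 13.6 for leukocyte genes (3 higher, 1 lower) and -4.89 for mesenchyme genes (1 higher, 4 lower). Of 14 genes known to be silenced in β cells, the median promoter was at 2.22% and 2.75%, with 8 higher and 6 lower and a median difference of 0.057 points. By limma 0 of these promoters and gene bodies had an adjusted p under 0.05 for treatment or sex. For treatment 1 of 4 leukocyte promoters and 1 of 14 silenced gene promoters had an unadjusted p under 0.05, against 4.11% of all promoters. So did 1 of 14 silenced gene bodies, against 4.38% of all gene bodies. All 3 were lower after amphetamine. For sex 0 promoters passed this threshold. Of gene bodies 1 of 11 acinar, 2 of 7 duct and 1 of 14 silenced genes passed it, against 6.5% of all. The part of cell composition in the values of the 9 genes was not tested.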

How the data were processed

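RRBS was performed on pancreas of 11 mice. According to the study's methods, DNA was cut with MspI and TaqI, single-end 50-bp reads were aligned by the NextFlow methylseq pipeline (Bismark, mm10), and CpGs were summarized by region with RnBeads; the version of Bismark was not given in the sources used here. The 8 deposited tables hold, per region and group, the mean methylation as a fraction averaged by the authors over mice with reads, its SD, lowest and highest mouse, the number of mice without a value, and the coverage, a signal deposited as a mean with no scaling for depth. Multiplied by the group size it was a whole number in 100% of regions that a mouse had no value in, so the mean is over all mice of a group; that it is summed over a region's CpGs is how it was read here. The depth of each mouse was not analysed here. The authors' own differences, log quotients, p-values and ranks of both comparisons are also in the tables and were not used.

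From these, limma's moderated test (limma 3.58.1, R 4.3.3, squeezeVar) was computed from mean, SD and number of mice, two-sided, over all regions of a class with at least 2 mice in each group, and adjusted by Benjamini-Hochberg. No covariate was used. The test sets each difference against the spread between mice within the groups and treats the pups as independent. Intervals are 95% intervals from the same fit. Litters were not known, so if littermates are alike the p-values may be too small and the intervals too narrow. Tested on simulated mice for 20459 promoters (amphetamine against control), the test gave the p-values of limma on single mice. In that simulation 200 promoters were shifted, and the test called 23% at a shift of 20 points and 57% at 40 points. These rates describe the shifted promoters as a set. They were not worked out separately for the member promoters, several of them near 0, or for gene bodies, islands or tiles. Number and summed methylation of the mice were the same in both comparisons' tables for 100% of regions in each class. Promoter coordinates were the same as those from GENCODE for 99.97% of 20371 genes.

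The members, gene lists and tests were chosen with earlier results of these data known. Named are all members with promoter, gene body, islands and start tile, their tiles with an unadjusted p under 0.05 or the lowest or highest level, and up to 10 pathway genes of smallest p. Alternatives were other thresholds, a variance trend, a logit scale (offset 0.01), coverage of at least 10, a value in all 11 mice, autosomes alone, removal of the extreme mice and a stricter overlap. Python 3.11.15 was used for the rest.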

Additional observations from a re-analysis of the deposited data

How the results depend on the processing

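The count of 0 called regions was the same, in both comparisons and for promoters, gene bodies, islands and tiles, at an adjusted p under 0.1, with a variance trend, on the logit scale, at a coverage of at least 10, with a value in all 11 mice and on autosomes alone. Requiring at least 50% of an island or tile to lie inside the gene or promoter only removes regions, so it could not change this count. At an unadjusted p under 0.05 the count became 6 tiles for treatment, and 1 gene body and 10 tiles for sex. Removing the highest or lowest mouse of a group turned the sign of the treatment difference at 5 of 6 promoters, 5 of 9 gene bodies, 0 of 3 islands and 14 of 35 named tiles, and of the sex difference at 2, 5, 1 and 13 of 34 tiles. Regions equal in both groups, such as the Kcnj11 island, could not turn sign. The G6pc2 gene body difference stayed between 16.3 and 32.7 points under these removals. The mice between the extremes could not be removed, since only group summaries were used here. No paired analysis was possible because the labels name no litter or batch that ties an amphetamine mouse to a control mouse, or a female to a male, and the mice were numbered in accession order. Depth was low in 35 of the 123 tiles, at under 20 reads in the less covered group, and outlying mice could not be looked for without values per mouse.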
